A study of Mus musculus with 4 samples.

Results

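Interferon-stimulated genes were examined in the mouse breast cancer line 4T1, which forms lung metastases in recipient mice and stands for triple negative disease, after sorting by mitochondrial membrane potential (MMP). Of the 20197 genes in the expression table, 47 carry a symbol from a list of genes known to respond to interferon, and all 47 were found. The genes were chosen by name, though with earlier results of these data known. The study asked how gene expression differs between cells of high and low MMP. WT cells in culture were stained with 20 nM MitoSpy Red, a dye that mitochondria take up in proportion to their membrane potential, and the brightest 5% and the dimmest 5% were sorted as high MMP and low MMP cells. Each group had 2 libraries, called here high MMP 1 and 2 and low MMP 1 and 2 after the replicate numbers in their titles. Staining, sorting and RNA isolation from 100000 cells were common to both groups, no interferon treatment is named for either, and all 4 libraries come from 1 line in culture, with no host tissue or immune cells added.

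Interferons are secreted proteins that cells release when they sense foreign or misplaced nucleic acid. They bind receptors at the cell surface, JAK kinases then phosphorylate STAT proteins, and a complex that holds STAT2 and IRF9 binds a promoter element, the interferon-stimulated response element (ISRE). The genes switched on in this way encode sensors of viral RNA, transcription factors that reinforce the response, enzymes that block translation or degrade RNA, membrane proteins, and the ubiquitin-like modifier ISG15 with its enzymes. Tumor cells in culture express many of these genes at a low level without added interferon.

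The libraries held between 22591970 and 26395015 reads assigned to genes. A value is the normalized read number of a gene per 20000000 reads of its library. A difference is the mean log2(value + 1) of high MMP cells minus that of low MMP cells, unless other libraries are named. Transcripts of the epithelial cells from which the line derives were abundant, with *Krt8* between 13147 and 19554 normalized reads, while the pan-leukocyte gene *Ptprc* stayed at 1.77 or less. The protein-coding transcripts of the mitochondrial genome took 1.27% of reads in high MMP 1 and 2.02% to 2.24% in the other 3 libraries, so high MMP 1 stood apart in this measure. In sorted populations, fewer cells that express a gene and less RNA of it per cell cannot be told apart.

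The promoter element itself can be read upstream of several of the genes described here. Of the 47 genes, 36 have a promoter window in RefSeq (GRCm38.p6), and the 250 bases before the start of transcription were searched on both strands for GAAA, any 2 bases and GAAA again, which reads TTTC, any 2 bases and TTTC on the opposite strand. A match was present in 13 of the 36 (36.1%) and in 3.46% of all 27025 genes with a window. Several genes with a large spread between replicates had a window with 0 matches (*Cmpk2*, *Irf7*, *Oasl1*). So had several genes lower in both high MMP libraries (*Trim25*, *Dtx3l*, *Herc6*). The 6 sequences that follow all hold a match. They belong to genes either with a large spread between replicates (*Isg15*, *Ifit1*, *Rsad2*, *Oas1a*) or lower in both high MMP libraries (*Gbp3*, *Gbp7*). They run 5′ to 3′ along the strand of the gene and end at the base before its RefSeq start, with matches in capitals.
Isg15: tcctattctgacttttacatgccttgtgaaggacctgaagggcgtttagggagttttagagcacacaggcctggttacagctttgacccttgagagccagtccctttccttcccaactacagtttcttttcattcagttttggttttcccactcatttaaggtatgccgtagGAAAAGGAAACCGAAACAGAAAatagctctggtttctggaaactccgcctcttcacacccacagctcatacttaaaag
Ifit1: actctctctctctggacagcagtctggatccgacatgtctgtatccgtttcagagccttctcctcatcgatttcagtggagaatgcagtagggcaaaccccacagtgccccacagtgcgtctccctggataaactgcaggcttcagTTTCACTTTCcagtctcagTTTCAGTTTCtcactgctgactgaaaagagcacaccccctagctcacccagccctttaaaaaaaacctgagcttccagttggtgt
Rsad2: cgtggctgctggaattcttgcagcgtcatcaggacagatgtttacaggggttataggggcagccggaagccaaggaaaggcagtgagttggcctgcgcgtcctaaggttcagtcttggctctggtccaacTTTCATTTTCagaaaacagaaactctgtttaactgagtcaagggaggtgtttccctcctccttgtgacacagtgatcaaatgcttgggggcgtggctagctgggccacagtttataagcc
Oas1a: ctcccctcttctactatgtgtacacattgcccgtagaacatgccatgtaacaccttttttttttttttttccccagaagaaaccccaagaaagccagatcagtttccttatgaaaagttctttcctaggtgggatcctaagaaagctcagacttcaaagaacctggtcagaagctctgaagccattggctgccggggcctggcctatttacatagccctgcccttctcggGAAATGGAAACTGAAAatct
Gbp3: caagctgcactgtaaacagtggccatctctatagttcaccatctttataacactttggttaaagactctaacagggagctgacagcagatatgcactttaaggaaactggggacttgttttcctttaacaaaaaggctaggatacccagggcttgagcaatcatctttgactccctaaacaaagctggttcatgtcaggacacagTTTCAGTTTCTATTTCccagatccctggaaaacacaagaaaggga
Gbp7: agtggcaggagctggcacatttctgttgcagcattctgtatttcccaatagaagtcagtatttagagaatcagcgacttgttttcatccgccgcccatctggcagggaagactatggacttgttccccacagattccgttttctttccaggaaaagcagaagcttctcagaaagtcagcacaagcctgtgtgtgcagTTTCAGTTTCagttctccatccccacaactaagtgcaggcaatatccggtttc
The window of *Isg15* lies at chr4:156200819-156201068 on the minus strand, that of *Ifit1* at chr19:34640639-34640888 on the plus strand and that of *Rsad2* at chr12:26456453-26456702 on the minus strand. The window of *Oas1a* lies at chr5:120907526-120907775 on the minus strand, that of *Gbp3* (the upstream one of 2 listed starts) at chr3:142559794-142560043 on the plus strand and that of *Gbp7* at chr3:142530086-142530335 on the plus strand. Overlapping matches fuse into 1 run of capitals, so *Isg15* has 3 matches, *Ifit1*, *Oas1a* and *Gbp3* have 2 each, and *Rsad2* and *Gbp7* have 1 each. The match nearest to the start began 14 bases before it in *Oas1a* and 120 bases before it in *Rsad2*. A second element, the GAS site of the response to type II interferon, was searched as TTCNNNGAA, a sequence that equals its own reverse complement, and matched in 6 of the 36 genes (16.7%) and in 8.13% of all genes. A match is a description of the letters and not evidence of binding.

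No interferon-stimulated gene passed the test between high and low MMP cells. With limma, 0 of the 47 genes had an adjusted p under 0.05, where the share over all 20197 genes was 0%, and the smallest adjusted p of a member was 0.472. At an unadjusted p under 0.05, 6 members were lower in high MMP cells, against 6.01% of all genes, and 0 were higher, against 3.95%. The 6 were *Mx1*, *Oas2*, *Gbp3*, *Trim25*, *Parp9* and *Dtx3l*, of which *Mx1* had no library above 2 reads and *Oas2* none above 6. On recovered reads, edgeR called 0 members and 0 of all genes, with 5 members and 1423 of 20197 genes at an unadjusted p under 0.05, and DESeq2 called 0 members (0.985% of the genes it tested), with 0 members and 660 genes at an unadjusted p under 0.05. The edgeR fit that takes the replicate number as a block called 0.525% of all genes and 0 members. With 2 libraries against 2, the exact two-sided permutation test of a single value cannot go below p = 0.333.

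The direction of the members leaned to low MMP. The mean log2 value was lower in high MMP cells for 40 of the 47 genes, against 58.6% of all genes, and the median difference was -0.22, against -0.04 for all genes. This lean rested on 2 libraries. Without low MMP 2, 25 of 47 members were lower in high MMP cells, against 56.4% of all genes, and the median was -0.03. Without high MMP 2, 30 were lower, against 54.4%, with a median of -0.08. Without high MMP 1, 39 were lower (all genes 55.4%, member median -0.34), and without low MMP 1, 45 were lower (all genes 58.3%, member median -0.44). Of the 46 members with a mean of at least 1, both low MMP libraries lay above both high MMP libraries in 12, against 24.3% of all genes, and both high MMP libraries lay above in 1, against 13.8%. The groups thus separated about as often for these genes as for others in the first direction. Among the 42 members averaging 10 or more, the counts were 9, against 23.7% of all genes, and 1, against 14.3%.

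**Figure D1:**
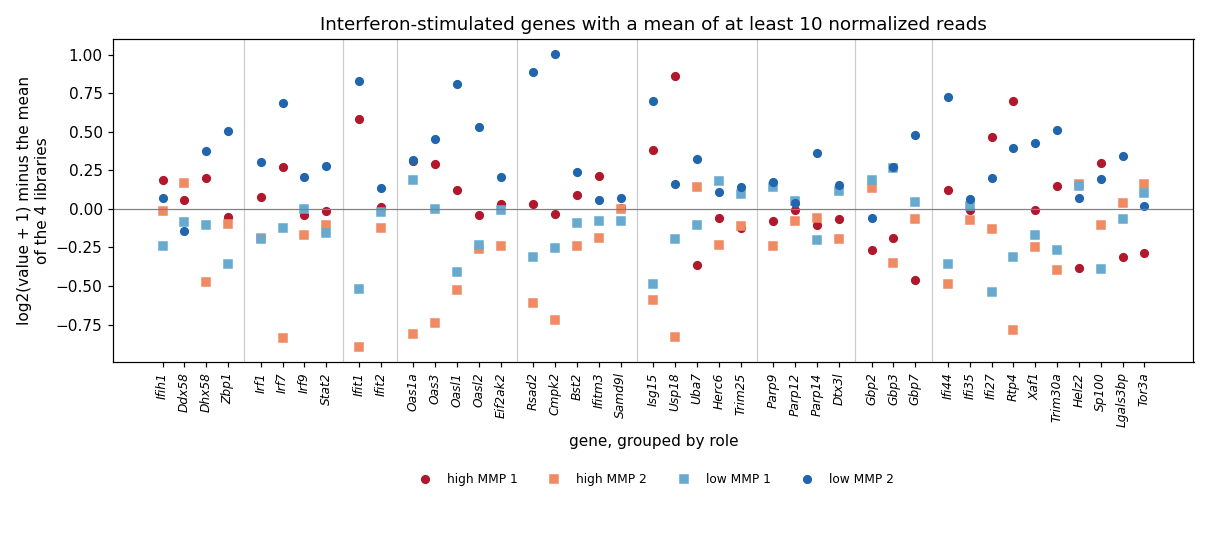
The 42 interferon-stimulated genes with a mean of at least 10 normalized reads, grouped by role, each point being 1 library's log2(value + 1) minus the mean of the 4 libraries for that gene. Low MMP 2 (dark blue) is the highest point for 30 genes and high MMP 2 (orange squares) the lowest for 26.

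Members also moved between replicates of the same sort. For the 42 with a mean of at least 10, the median difference between sorts was -0.21, from means of 2 libraries each. A difference between replicates sets 1 library against 1, so the sizes are not directly comparable. Among the 42 members with a mean of at least 10, low MMP 2 was above low MMP 1 in 36, against 50.4% of all genes of that level, with a median difference of 0.42 on the log2 scale (all genes 0.002). High MMP 1 was above high MMP 2 in 33, against 47.6%, with a median difference of 0.21 (all genes -0.02). Low MMP 2 was the highest of the 4 libraries for 30 members, against 23.9% of all genes, and high MMP 2 was the lowest for 26, against 29.3%. The 4 libraries of a member spanned a median of 0.64 on the log2 scale, and those of all genes at this level 0.35.

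Same-numbered libraries therefore gave opposite answers. High MMP 1 minus low MMP 1 was positive for 28 of the 42 members, with a median of 0.15, whereas high MMP 2 minus low MMP 2 was positive for 4, with a median of -0.43. Over all genes of this level the medians were -0.04 and -0.03. Members lower in high MMP cells in both pairs numbered 11 of 42, against 28.1% of all genes, and 1 was higher in both, against 17.6%. The titles do not say whether a shared number marks a shared sort, so the pairs are only pairs of numbers.

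**Figure D2:**
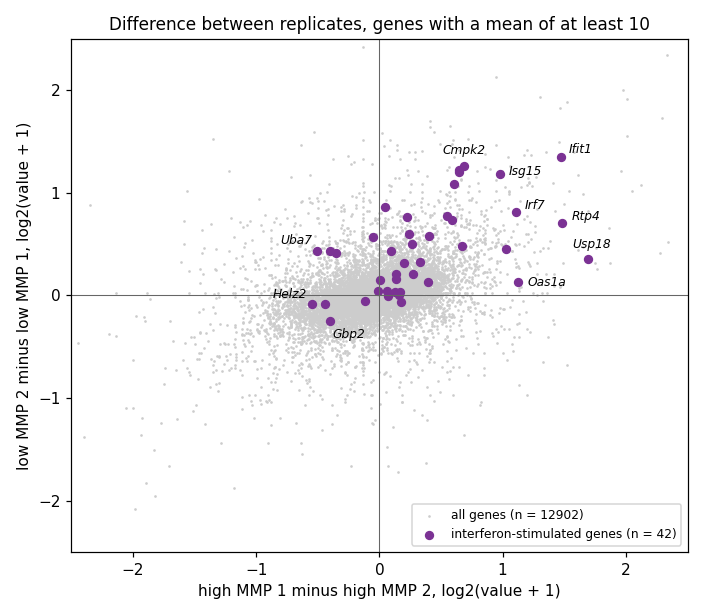
Difference between the replicates of each sort over the 12902 genes that average 10 normalized reads or more, with high MMP 1 minus high MMP 2 on the horizontal and low MMP 2 minus low MMP 1 on the vertical axis, both on the log2(value + 1) scale. Most of the 42 interferon-stimulated genes (purple) lie in the upper right part, and *Ifit1* and *Isg15* lie far out in it, whereas *Gbp2*, *Helz2* and *Tor3a* lie in the lower left.

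The sensors of viral RNA come first in the pathway, and they were divided. *Ddx58* encodes RIG-I, which recognizes short RNA with a free triphosphate. It measured 774 normalized reads in high MMP 1, 838 in high MMP 2, 703 in low MMP 1 and 675 in low MMP 2, and both high MMP libraries lay above both low ones, the only member of which this holds. Its difference was 0.23 (SE 0.09, limma adjusted p = 0.523). *Ifih1*, which encodes the sensor of long double-stranded RNA MDA5, measured 272 and 237 in the high and 202 and 251 in the low MMP libraries, with overlapping groups. *Dhx58*, the regulator of these sensors, and *Zbp1*, a sensor of Z-form nucleic acid, had lower means in high MMP cells, with differences of -0.27 (SE 0.32) and -0.15 (SE 0.36). The first pair of libraries gave a positive difference for all 4 sensors and the second pair for 1 of 4.

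All 4 transcription factors of the response on the list had their highest value in low MMP 2. *Irf1*, an activator that responds to both types of interferon, measured 1309 normalized reads in high MMP 1, 1089.5 in high MMP 2, 1085 in low MMP 1 and 1536 in low MMP 2, and its high MMP values lay inside the range of its low MMP values. *Irf7*, the factor that amplifies type I interferon production, measured 46.2 normalized reads in high MMP 1, 20.9 in high MMP 2, 34.9 in low MMP 1 and 62 in low MMP 2. High MMP 1 was 2.21-fold above high MMP 2 and low MMP 2 was 1.78-fold above low MMP 1, so the groups overlapped and the difference of -0.56 (SE 0.51, limma adjusted p = 0.819) was about the size of its error. It was -0.0093 without high MMP 2 and -1.12 without high MMP 1. *Irf9*, the DNA-binding subunit of the complex with STAT2, measured 230.3 and 210.0 in the high and 236 and 273 in the low MMP libraries, with both low MMP libraries above both high ones but a difference of -0.21 (SE 0.13, limma adjusted p = 0.716). *Stat2* measured 287 and 269 in the high and 261 and 351 in the low MMP libraries and overlapped.

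The IFIT proteins bind foreign RNA and block its translation, and *Ifit1* (ENSMUSG00000034459, GRCm38 chr19:34640871-34650009, plus strand) showed the replicate spread at its clearest. It measured 83.3 normalized reads in high MMP 1, 29.3 in high MMP 2, 38.4 in low MMP 1 and 99.2 in low MMP 2. High MMP 1 and low MMP 2 were the high libraries and the other 2 the low ones, 2.85-fold apart among the high MMP libraries and 2.58-fold apart among the low MMP libraries. The difference between sorts was -0.31 (SE 0.71, limma adjusted p = 0.955), with 1.10 in the first pair and -1.73 in the second. *Ifit2*, on the same chromosome, was more abundant and much steadier at 419.8 and 382 in the high and 411 and 459 in the low MMP libraries, with a difference of -0.11 (SE 0.11, limma adjusted p = 0.833). *Ifit3* and *Ifit3b* had means under 10 normalized reads and share sequence: 41.1% of the 75-base stretches of *Ifit3* exons also occur in *Ifit3b*, so reads between this pair are uncertain.

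The OAS family includes 2′-5′ oligoadenylate synthetases, which switch on an RNase in the presence of double-stranded RNA. It is grouped here with PKR, encoded by *Eif2ak2*, which halts translation. The means of all 6 genes of this group were lower in high MMP cells, and of the 5 with a mean of at least 10, low MMP 2 was the highest and high MMP 2 the lowest library for each. Their median difference was 0.19 in the first pair and -1.13 in the second. *Oasl1* measured 167 normalized reads in high MMP 1, 106 in high MMP 2, 115 in low MMP 1 and 269 in low MMP 2, with 2.34-fold between the low MMP libraries and a difference of -0.40 (SE 0.49, limma adjusted p = 0.874). *Eif2ak2* was the most abundant of the group at 1123 and 929.7 in the high and 1093 and 1265 in the low MMP libraries, its groups overlapped, and its difference was -0.20 (SE 0.14, limma adjusted p = 0.749). *Oas1a* measured 70.5 and 31.8 in the high and 64.5 and 70.8 in the low MMP libraries, so high MMP 2 alone was low. Of its 75-base stretches, 47.6% also occur in *Oas1g*, so its value may hold reads of that gene. *Oas2* was nearly silent, with 2 and 1 recovered reads in high MMP 1 and 2 and 6 and 5 in low MMP 1 and 2. Its groups did not overlap, and the limma adjusted p was 0.472.

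The Mx proteins are GTPases that block viral replication, and they were close to the limit of detection. *Mx1* had 0 reads in both high MMP libraries and 2 in each low MMP library, under the 3 reads that a count of 0 allows. Its unadjusted p of 0.00672 was the smallest of any member, but counts this low lie within the counting floor and give no fold. *Mx2* had 5 and 4 reads in high MMP 1 and 2 and 7 and 13 in low MMP 1 and 2, without overlap, and its difference was -1.05 (SE 0.42, limma adjusted p = 0.546). *Rsad2*, which encodes viperin, and *Cmpk2*, its neighbor on chromosome 12 that encodes a mitochondrial nucleotide kinase, moved alike across the 4 libraries. *Rsad2* measured 56.8 normalized reads in high MMP 1, 36 in high MMP 2, 44.5 in low MMP 1 and 104 in low MMP 2, and *Cmpk2* measured 35.6 normalized reads in high MMP 1, 21.8 in high MMP 2, 30.5 in low MMP 1 and 74.4 in low MMP 2. Low MMP 2 stood highest for both, 2.33-fold and 2.44-fold above low MMP 1, and high MMP 2 was lowest for both. The differences between sorts were -0.58 (SE 0.50) for *Rsad2* and -0.76 (SE 0.53) for *Cmpk2*, with limma adjusted p of 0.81 and 0.754. Leaving out 1 library moved the difference of *Cmpk2* between -1.38 (without low MMP 1) and -0.13 (without low MMP 2).

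The membrane proteins *Ifitm3* and *Bst2* were abundant. *Ifitm3*, which hinders the fusion of viruses with endosomes, measured 2134 normalized reads in high MMP 1, 1619 in high MMP 2, 1746 in low MMP 1 and 1916 in low MMP 2, so both low MMP values fell between the high MMP values, and its difference was 0.02 (SE 0.16, limma adjusted p = 0.994). *Bst2*, which encodes tetherin, measured 549 and 436 in the high and 483 and 606 in the low MMP libraries, again with high MMP 1 and low MMP 2 on top. *Samd9l*, a translation inhibitor in the same role group, was steady at 333 and 333 in the high and 316 and 349.7 in the low MMP libraries, and its difference was 0.00 (SE 0.10, limma adjusted p = 0.994).

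The ISG15 system attaches a ubiquitin-like protein to other proteins and holds genes of both kinds of behavior. *Isg15* itself (ENSMUSG00000035692, GRCm38 chr4:156199424-156200818, minus strand) measured 152 normalized reads in high MMP 1, 77 in high MMP 2, 82.8 in low MMP 1 and 189 in low MMP 2. High MMP 1 was 1.98-fold above high MMP 2 and low MMP 2 was 2.29-fold above low MMP 1, the groups overlapped, and the difference was -0.21 (SE 0.54, limma adjusted p = 0.964). *Usp18*, the protease that removes ISG15 and dampens the interferon receptor, measured 26.5 normalized reads in high MMP 1, 7.53 in high MMP 2, 12.2 in low MMP 1 and 15.9 in low MMP 2, from 35, 9, 14 and 18 reads, so high MMP 1 alone was high. *Trim25* (ENSMUSG00000000275, GRCm38 chr11:88999376-89020293, plus strand), a ubiquitin ligase that activates RIG-I, behaved otherwise. It measured 2289.8 normalized reads in high MMP 1, 2311 in high MMP 2, 2668 in low MMP 1 and 2753 in low MMP 2, with replicates close together and no overlap, or 2301 ± 15.2 in high MMP against 2711 ± 59.9 in low MMP cells (SD, n = 2 each). Its difference was -0.24 (SE 0.07, limma adjusted p = 0.472). *Herc6*, the ligase that conjugates ISG15 in mice, measured 149 and 132 in the high and 176 and 168 in the low MMP libraries, also without overlap, with a difference of -0.29 (SE 0.13, limma adjusted p = 0.597), and 11.3% of its 75-base stretches occur in other gene models. *Uba7*, the activating enzyme, measured 108 and 154 in the high and 129.9 and 175 in the low MMP libraries, and its groups overlapped.

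**Figure D3:**
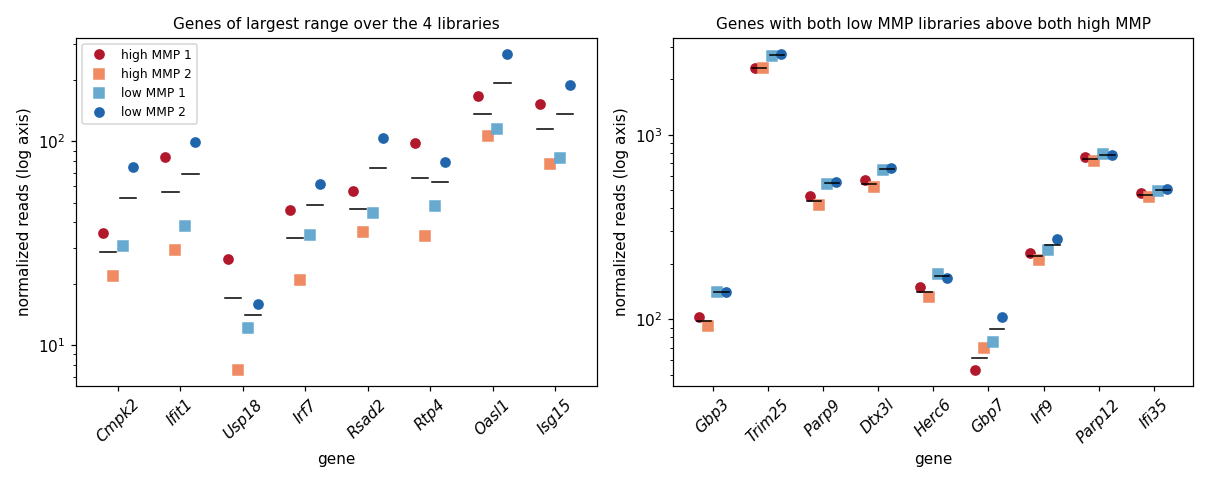
Normalized reads on a log axis in each of the 4 libraries for the 8 members with the largest range (left) and the 9 members with a mean of at least 10 in which both low MMP libraries lay above both high MMP libraries (right), with horizontal lines at the group means. On the left, high MMP 1 and low MMP 2 lie above the other library of their sort for each gene. On the right the replicates lie close together for most genes, with *Gbp7* the most spread. Both panels were chosen on these same values, and choosing genes without overlap favors replicates that lie close together.

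*Parp9* and *Dtx3l* encode partners in 1 complex of an ADP-ribosyltransferase and a ubiquitin ligase, and both were lower in both high MMP libraries. *Parp9* (ENSMUSG00000022906, GRCm38 chr16:35938470-35972605, plus strand) measured 466 normalized reads in high MMP 1, 415 in high MMP 2, 542 in low MMP 1 and 555 in low MMP 2, or 441 ± 36 in high MMP against 549 ± 9.07 in low MMP cells (SD, n = 2 each). *Dtx3l* (ENSMUSG00000049502, GRCm38 chr16:35926511-35939151, minus strand) measured 568 normalized reads in high MMP 1, 519 in high MMP 2, 644 in low MMP 1 and 661 in low MMP 2, or 543 ± 34.4 in high MMP against 653 ± 12.1 in low MMP cells (SD, n = 2 each). The differences were -0.32 (SE 0.10, limma adjusted p = 0.472) and -0.27 (SE 0.09, limma adjusted p = 0.472). The 2 genes overlap on opposite strands of chromosome 16 over 9.4% of the exons of *Parp9* and 8% of those of *Dtx3l*, and whether reads were counted by strand is not given in the sources used here, so their values are not fully separate. *Parp12*, a related enzyme, measured 754 normalized reads in high MMP 1, 717 in high MMP 2, 785 in low MMP 1 and 779 in low MMP 2, with a small gap between the groups and a difference of -0.09 (SE 0.08, limma adjusted p = 0.811). *Parp14* measured 329.6 and 341 in the high and 309 and 458 in the low MMP libraries, with low MMP 2 alone high.

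The guanylate-binding proteins are GTPases that attack the membranes around intracellular microbes, and they lie together on chromosome 3. The means of all 3 were lower in high MMP cells, with median differences of -0.46 in the first pair and -0.54 in the second. *Gbp3* (ENSMUSG00000028268, GRCm38 chr3:142560026-142573209, plus strand) measured 103 normalized reads in high MMP 1, 92.1 in high MMP 2, 141 in low MMP 1 and 142 in low MMP 2, or 97.6 ± 7.78 in high MMP against 141 ± 0.295 in low MMP cells (SD, n = 2 each), without overlap and with near equal low MMP libraries. Its difference was -0.53 (SE 0.14, limma adjusted p = 0.472), the largest in size among the members that average 10 normalized reads or more and had an unadjusted p under 0.05. *Gbp7* measured 53 and 70.3 in the high and 75.8 and 103 in the low MMP libraries, without overlap, with a difference of -0.52 (SE 0.25, limma adjusted p = 0.628), and 11.3% of its 75-base stretches occur in other gene models. *Gbp2*, the most abundant of the 3, measured 255 normalized reads in high MMP 1, 337 in high MMP 2, 349.6 in low MMP 1 and 294 in low MMP 2, and its groups overlapped, with high MMP 1 low and low MMP 1 high.

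The remaining 10 genes have mixed functions, and 8 of them had a lower mean log2 value in high MMP cells. *Rtp4*, a chaperone of receptors at the membrane, measured 97.7 normalized reads in high MMP 1, 34.3 in high MMP 2, 47.9 in low MMP 1 and 78.8 in low MMP 2, or 66 ± 44.9 in high MMP against 63.4 ± 21.8 in low MMP cells (SD, n = 2 each). High MMP 1 was 2.85-fold above high MMP 2, the groups overlapped, and the difference was -0.08 (SE 0.59, limma adjusted p = 0.994). It differed by 1.01 in the first pair of libraries and -1.18 in the second, and 10.5% of its 75-base stretches occur in another gene model. *Lgals3bp*, which encodes a secreted glycoprotein that binds galectins, measured 686 normalized reads in high MMP 1, 878 in high MMP 2, 813 in low MMP 1 and 1081 in low MMP 2, with overlapping groups and a difference of -0.27 (SE 0.20, limma adjusted p = 0.762). *Ifi27*, a small protein of mitochondria and the nuclear envelope, measured 811 and 537 in the high and 404 and 674 in the low MMP libraries. It was one of 2 in this group with a higher mean log2 value in high MMP cells, by 0.34 (SE 0.33). *Sp100*, a component of nuclear bodies, was the other, by 0.19 (SE 0.27). *Ifi35*, which binds N-myc and STAT interactor (NMI), held a narrow gap between the groups at 484 and 463 in the high and 494 and 508 in the low MMP libraries. The RNA helicase gene *Helz2* and the torsin gene *Tor3a* ran the other way from *Ifit1*: *Helz2* measured 596 and 869 in the high and 862 and 814 in the low MMP libraries and *Tor3a* 618 and 840.2 in the high and 809 and 761 in the low MMP libraries, with high MMP 1 the lowest library for both.

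**Figure D4:**
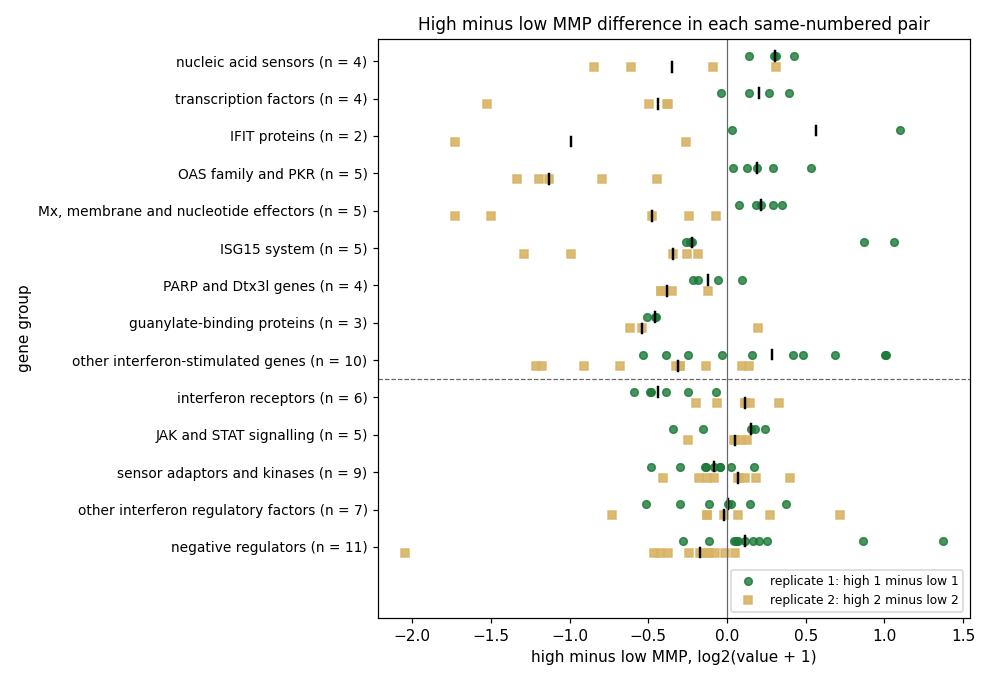
Difference in log2(value + 1) between high and low MMP, positive where high MMP is higher, in the pair of libraries numbered 1 (green circles) and the pair numbered 2 (yellow squares), for each gene with a mean of at least 10 in each role group, with black ticks at the group medians. Above the dashed line are the 9 groups of interferon-stimulated genes, where the median of the second pair lies to the left of that of the first in each, and below it are 5 groups of other interferon pathway genes.

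Compared per length of exon, the 47 genes ranged over the whole scale of expression. The median member had 32.8 normalized reads per kb and the median gene 34.9, with 24 members below the latter and 2 among the highest 10% of all genes. *Ifitm3* led with 2734 normalized reads per kb, followed by *Bst2* with 574, *Trim25* with 435, *Ifi27* with 413 and *Irf1* with 316. *Mx1*, with 0.232, and *Oas2*, with 0.675, were the lowest. In the order from highest to lowest, the libraries of neighboring genes overlapped in 42 of 46 steps. The steps without overlap were those from *Ifitm3* to *Bst2*, from *Bst2* to *Trim25*, from *Ifi35* to *Eif2ak2* and from *Parp9* to *Helz2*. Most genes with a large spread between replicates sat in the middle and lower part of this order, *Ifit1* at 23.5 normalized reads per kb and *Rsad2* at 13.9. However, *Isg15* was at 166, and *Ifi27*, whose libraries spanned 1.00 on the log2 scale, was at 413.

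**Figure D5:**
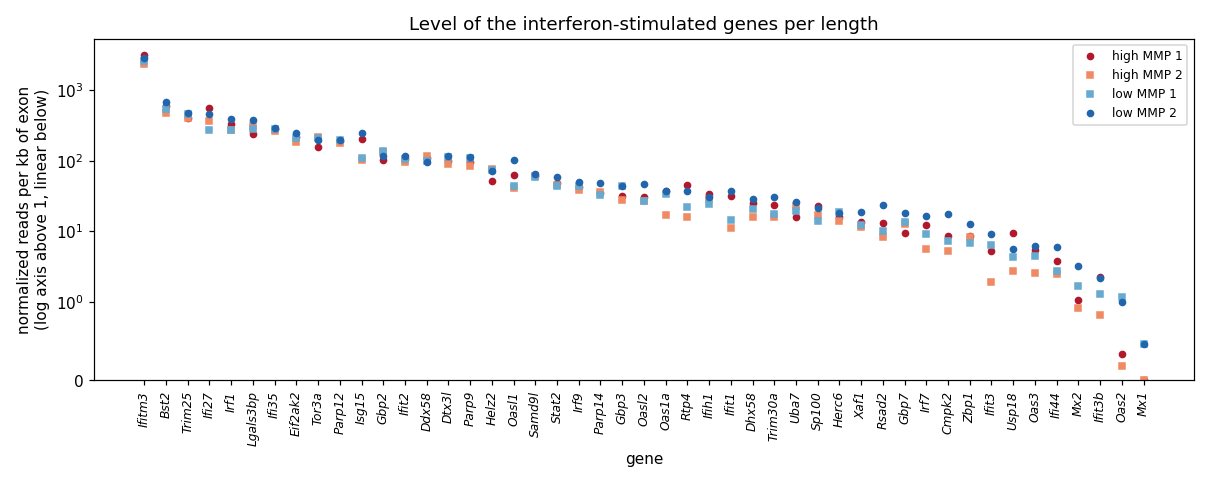
Normalized reads per kb of exon of the 47 interferon-stimulated genes in each library, ordered by mean level, on an axis that is logarithmic above 1 and linear below. *Ifitm3* lies alone at the top at a mean of 2734, and most neighbors overlap in their library values.

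Members with the ISRE letters and members without them spread between replicates in the same direction. Among members that average 10 normalized reads or more and have a window, low MMP 2 was above low MMP 1 in 10 of 11 with a match and in 19 of 23 without one. High MMP 1 was above high MMP 2 in 9 of 11 and 18 of 23. The median difference between the low MMP libraries was 0.43 with a match and 0.21 without, and that between the high MMP libraries was 0.55 and 0.17. In 277 other genes of this level with a match, the medians were 0.02 and 0.04. In 9043 other genes without a match they were -0.001 and -0.03.

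Of the other genes of the interferon pathway, 39 of 61 listed were in the table, 0 passed the test in either direction, and 0 had an unadjusted p under 0.05 with limma. The mean was lower in high MMP cells for 25, against 58.6% of all genes, and higher for 14. Their median difference was -0.03, against -0.04 for all genes. Of 21 interferon genes listed, *Ifnb1*, the gene of interferon beta, was the only one in the table, with 1 read in high MMP 2 and 1 in low MMP 2. For 6 of 6 receptor chains the lowest library was high MMP 1, against 37.3% of all genes that average 10 or more. *Ifnar1*, a chain of the type I receptor, measured 1050.2 and 1250.2 in the high and 1248 and 1132 in the low MMP libraries, and *Ifngr1*, a chain of the type II receptor, measured 657 and 838 in the high and 924 and 876 in the low MMP libraries. In *Ifit1*, by contrast, high MMP 1 was high.

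Among the kinases that signal from the receptors, *Jak1* measured 3036 and 3334 in the high and 3377 and 3133 in the low MMP libraries and *Jak2* 2296 and 2079 in the high and 2031 and 2473 in the low MMP libraries, with differences of -0.03 (SE 0.09) and -0.04 (SE 0.13). The adaptors and kinases behind the sensors were led by *Traf3* at 2520.2 and 3003 in the high and 2665 and 2642 in the low MMP libraries and *Tbk1* at 1286 and 1419 in the high and 1583 and 1549 in the low MMP libraries. *Tbk1*, the kinase that phosphorylates IRF3, was lower in both high MMP libraries, with a difference of -0.21 (SE 0.09, limma adjusted p = 0.55). Among the other interferon regulatory factors and their cofactors, *Irf2bp2* measured 1720.0 and 1788 in the high and 1710.4 and 1950.2 in the low MMP libraries and *Irf2bpl* 949 and 1151 in the high and 1169 and 1167 in the low MMP libraries, with overlapping groups in the former.

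The negative regulators shared the replicate pattern of the members. High MMP 1 was above high MMP 2 in 10 of 11, against 47.6% of all genes, and low MMP 2 above low MMP 1 in 10 of 11, against 50.4%. The most abundant were *Samhd1*, a nucleotide hydrolase, at 2596 and 2235 in the high and 2393 and 2514 in the low MMP libraries, and *Adar*, which edits double-stranded RNA, at 1394 and 1602 in the high and 1695 and 1736 in the low MMP libraries. *Socs3* and *Socs1*, named here after their values were seen, encode inhibitors of JAK kinases that cytokines induce. *Socs3* measured 769.8 normalized reads in high MMP 1, 267 in high MMP 2, 297 in low MMP 1 and 1103 in low MMP 2, so high MMP 1 was 2.88-fold above high MMP 2 and low MMP 2 was 3.71-fold above low MMP 1. *Socs1* measured 64.4 and 41.8 in the high and 34.9 and 56.7 in the low MMP libraries, with the same order of replicates within each sort.

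Other measures moved with this pattern too. The summed level of 11 epithelial markers was 61569 and 48038 normalized reads in the high and 52810 and 59974 in the low MMP libraries. High MMP 1 and low MMP 2 were again on top, and most of the sum was *Krt8* and *Krt18*. Marker by marker, high MMP 1 was above high MMP 2 in 8 of 11, against 47.6% of all genes that average 10 or more. *Cdh1*, *Krt14* and *Grhl2* went the other way. Low MMP 2 was above low MMP 1 in 9 of 11, against 50.4%, with *Krt14* and *Grhl2* the other way. The part of these markers in the result was not tested. Of 12 macrophage and monocyte markers, 5 were in the table and their sum was 404 to 419.8, with *Ptprc* at 0 to 1.77. Within that sum *Cd68* measured 59.9 and 139 in the high and 149 and 91.2 in the low MMP libraries, lowest in high MMP 1, and *Cd14* measured 319.8 and 236 in the high and 224 and 284 in the low MMP libraries, with high MMP 1 and low MMP 2 on top as in *Ifit1*. Of 10 T, B and NK cell markers, 1 was in the table, with a sum of 0 to 3.54, and of 6 dendritic cell markers 1, with a sum of 3.03 to 6.2. Of 8 fibroblast markers, 5 were in the table, and their sum was lower in the high MMP libraries, at 343 and 405, than in the low MMP libraries, at 582 and 632, most of it *Pdgfra*, and the part of either marker list in the lower values of members such as *Gbp3* was not tested. The 2 endothelial markers in the table, of 6, summed to 1.74 to 6.2. The share of reads from the 47 members was 0.0858% in high MMP 1, 0.0797% in high MMP 2, 0.0839% in low MMP 1 and 0.0975% in low MMP 2, the same order of replicates within each sort. The share of mitochondrial transcripts, by contrast, was lowest in high MMP 1 and nearly level in the other 3 libraries.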

How the data were processed

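Gene expression by RNA-sequencing was analysed in 2 libraries of high MMP and 2 of low MMP 4T1 cells. Libraries were made with a stranded mRNA kit from 200 ng of RNA and sequenced for 75 cycles. The authors aligned reads with STAR to GRCm38 (mm10), counted them per gene with HTSeq, scaled the counts to the library totals and retained genes found in at least 2 of the 4 samples (no gene in the table was above 0 in fewer). Tools and builds are taken from the submitters' processing notes and the methods of the study; the STAR version, the annotation release and the use of strand are not given in the sources used here. The deposited table thus holds a normalized signal, with columns that sum to 20000000 up to rounding. Every column belongs to a sample of the series. All values were whole multiples of 1 step per column (0.758 to 0.885), so whole reads were recovered for 100% of values within 0.05 reads. Of the 20197 identifiers, 19993 matched GENCODE M21 on GRCm38.

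The log2(value + 1) of each gene entered limma 3.58.1 (lmFit, eBayes with a trend) in R 4.3.3, without a block, and p-values were adjusted by Benjamini-Hochberg over all 20197 genes, with 0.05 as threshold. Because of the added 1, differences of genes with low values come out too small. The alternatives were pseudocounts of 0.1 and 5, a mean of at least 10, median-of-ratios and quantile scaling, no trend, the replicate number as a block, the quasi-likelihood test of edgeR 4.0.16 and, also on recovered reads, DESeq2 1.42.0, and leaving out each library. The tests were also run on simulated data. The study gives its n as 2 independent experiments, without saying which replicate number belongs to which, so p-values measure only the spread between these samples. Counting floors (3 reads) cover counting error only.

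The 47 genes, their role groups, the pathway list and the marker lists were chosen with earlier results of these data known. Values in every library are given for the 8 members of smallest raw p, the 8 of largest range that average 10 or more, and the most abundant member of each role group. Of the other pathway genes, the 2 most abundant of each group and ligands above 0 are given, and 1 further pathway gene is not reported here. Most other members are named with their role, and some with values. *Ifi44*, *Xaf1*, *Trim30a*, *Oas3* and *Oasl2* are named only with their range over the fits that left out a library. Shared sequence was the percentage of 75-base windows of a gene's GENCODE exons that occur in another gene.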

Additional observations from a re-analysis of the deposited data

How the results depend on the processing

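No member passed the threshold under any planned setting, and the smallest adjusted p of a member was 0.124 in those that kept all 4 libraries. Genes called rose from 0 to 106 in edgeR with the replicate block and to 118 in DESeq2 (shares of 0.525% of 20197 and 0.985% of 11974 genes), with 0 members among either. Members at an unadjusted p under 0.05 numbered 6 in limma without a block (2011 of all 20197 genes), 3 with a mean of at least 10 (1059 of 12902), 2 in limma with the replicate block (1055 of 20197), 3 in edgeR with the replicate block (918) and 0 in DESeq2 (660), and 2 to 9 when a library was left out (897 to 3353). The shared replicate numbers were checked as pairs: deviations of same-numbered libraries from their group means correlated at -0.421 over 12902 genes, so the block rests on a number only and changed no call of a member. With the numbers crossed, a setting added after the data were seen, edgeR called 733 genes, of them 1 member (*Ifi27*, higher in high MMP cells), and had 13 members and 2399 of 20197 genes at an unadjusted p under 0.05. Members in which both low MMP libraries lay above both high ones numbered 12 of 46, against 24.3% of all genes. When a library was left out, low MMP lay above high MMP in 13 to 35 members, with fewer libraries to separate. The share over all genes was not taken for those fits, so these counts cannot be set against it.

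Of 559 values of single members in the other settings, 4 changed sign, all of *Rtp4*: 0.0072 with quantile scaling, 0.11 in edgeR, 0.044 in edgeR with the replicate block crossed and 0.11 in DESeq2. Leaving out a library changed the sign of 27 members, and 20 kept theirs, *Trim25*, *Parp9*, *Dtx3l*, *Gbp3* and *Ddx58* among them. The ranges that follow cover only the fits that left out a library, and other settings could fall outside them. *Ifi35*, for example, was at -0.028 with quantile scaling. The lowest and highest log2 differences were -0.31 to 0.020 for *Bst2*, -0.60 to 0.070 for *Dhx58*, -0.33 to 0.073 for *Gbp2*, -0.49 to 0.054 for *Helz2*, -0.030 to 0.70 for *Ifi27*, -0.91 to 0.18 for *Ifi44*, -1.05 to 0.43 for *Ifit1*, -0.73 to 0.32 for *Ifit3b*, -0.18 to 0.22 for *Ifitm3*, -0.36 to 0.14 for *Irf1*, -0.80 to 0.38 for *Isg15*, -1.06 to 0.059 for *Oas1a*, -0.97 to 0.065 for *Oas3*, -1.01 to 0.21 for *Oasl1*, -0.68 to 0.082 for *Oasl2*, -0.45 to 0.12 for *Parp14*, -1.18 to 0.025 for *Rsad2*, -0.82 to 0.66 for *Rtp4*, -0.069 to 0.078 for *Samd9l*, -0.10 to 0.48 for *Sp100*, -0.34 to 0.093 for *Stat2*, -0.35 to 0.098 for *Tor3a*, -0.63 to 0.14 for *Trim30a*, -0.47 to 0.029 for *Uba7*, -0.81 to 0.88 for *Usp18*, -0.56 to 0.040 for *Xaf1* and -0.58 to 0.28 for *Zbp1*. Among the 20 that kept their sign, those that moved by over 1.5 times spanned -1.38 to -0.13 for *Cmpk2*, -0.34 to -0.067 for *Eif2ak2*, -0.74 to -0.31 for *Gbp7*, -0.11 to -0.050 for *Ifi35*, 0.014 to 0.33 for *Ifih1*, -0.19 to -0.035 for *Ifit2*, -1.73 to -0.52 for *Ifit3*, -1.12 to -0.0093 for *Irf7*, -0.31 to -0.10 for *Irf9*, -0.48 to -0.068 for *Lgals3bp*, -1.46 to -0.64 for *Mx2* and -0.12 to -0.052 for *Parp12*. The cause was not tested. With 2 libraries per group and fewer than 10 normalized reads for 5 members, small differences are not detectable.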
